A study of Rattus norvegicus with 9 samples.

Results

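The AP-1 transcription factor genes followed here are Fos, Fosb, Fosl1, Fosl2, Jun, Junb, Jund, Maff and Mafk. Their members were every probe set (a group of probes for 1 transcript) that the platform annotation gives to 1 of these 9 symbols: 15 of the 31099 probe sets in the deposited table, and 9 of 14218 genes named alone on a probe set. The study treated rat hippocampus with ketone bodies, the fuels that the liver makes from fat during fasting, and profiled total RNA on Affymetrix arrays. The 3 groups hold 3 arrays each: ketone bodies for 1 h, ketone bodies for 6 h, and a control group that received artificial cerebrospinal fluid alone. The labels used here name no strain, age, genotype, ketone body dose or duration of the control treatment, and do not say whether replicates are separate animals. The p-values therefore measure only the spread between these arrays, and their small number limits the precision.

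AP-1 is a dimeric transcription factor built from basic leucine zipper (bZIP) proteins: a Jun protein pairs with a Fos protein or another Jun and binds the short DNA element known as the AP-1 site. Fos, Fosb, Jun and Junb are immediate early genes, copied within minutes of synaptic activity or stress signals through transcription factors already present in the neuron. In the hippocampus Fos is widely used as a mark of recently active neurons. Maff and Mafk encode small Maf proteins, bZIP proteins with no activation domain of their own, which pair with each other or with NRF2-type and BACH-type partners.

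In build GRCr8 of RefSeq, Maff spans chr7:112792787-112804139, Mafk chr12:19948473-19970351, Fosb chr1:88082324-88089506, Fos chr6:110852188-110855054, Fosl1 chr1:212183885-212192391 and Fosl2 chr6:30017952-30039269. Jun spans chr5:115009900-115012993, Junb chr19:40081126-40082910 and Jund chr16:18768093-18769771. Promoters of 7 of the 9 genes were found in RefSeq sequences of this build, each covering 250 bases before to 50 bases after 1 transcript start per gene. Fos and Jun were not among them. For 5 genes that start is the outer end of the span given above, but for Fosb it lies 322 bases and for Mafk 11159 bases inside the span, so their windows are not upstream of the whole gene. They were searched on both strands for the AP-1 site (TGACTCA), for the cyclic AMP response element, CRE (TGACGTCA), and for the CArG box bound by SRF. The CRE reads the same on both strands, and no match overlapped another. A CRE stood 51 bases before the start of Maff and 221 bases before that of Jund. The letters of the AP-1 site and the CArG box were not in these 7 windows. Among 33469 promoters of this length the CRE occurred in 1.83%, the AP-1 site in 4.63% and the CArG box in 1.64%. The Maff and Jund promoters are shown because they alone held a match, and that of Fosb because its 6 h change was next in size to that of Maff. Maff lies at chr7:112792537-112792836 (+ strand), Jund at chr16:18769722-18770021 (- strand) and Fosb at chr1:88089135-88089434 (- strand), and capitals mark the CRE.
Maff: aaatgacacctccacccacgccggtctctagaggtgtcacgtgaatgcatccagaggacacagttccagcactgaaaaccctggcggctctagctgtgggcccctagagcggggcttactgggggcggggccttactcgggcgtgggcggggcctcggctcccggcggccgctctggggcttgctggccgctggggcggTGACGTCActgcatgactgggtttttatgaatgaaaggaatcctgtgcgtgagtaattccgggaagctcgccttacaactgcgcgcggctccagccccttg
Jund: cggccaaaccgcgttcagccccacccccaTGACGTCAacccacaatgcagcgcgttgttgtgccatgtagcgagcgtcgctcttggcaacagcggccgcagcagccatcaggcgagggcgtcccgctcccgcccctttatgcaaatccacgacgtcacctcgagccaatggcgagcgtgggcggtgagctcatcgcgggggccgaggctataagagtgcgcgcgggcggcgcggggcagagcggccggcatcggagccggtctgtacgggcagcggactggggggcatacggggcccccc
Fosb: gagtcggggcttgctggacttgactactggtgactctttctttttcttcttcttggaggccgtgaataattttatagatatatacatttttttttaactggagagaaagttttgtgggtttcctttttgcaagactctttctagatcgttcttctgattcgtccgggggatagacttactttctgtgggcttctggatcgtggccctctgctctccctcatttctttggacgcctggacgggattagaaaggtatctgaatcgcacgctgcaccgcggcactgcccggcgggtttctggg

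The labels call the source hippocampal neurons, but markers of other cells were also measured. All 7 neuronal markers (Snap25, Map2, Rbfox3 and others), all 5 astrocyte markers, all 6 microglial markers and the 4 oligodendrocyte markers on the array lay over the filter on low signals described below. The median deposited signal over the 9 arrays was 6155 for the neuronal gene Snap25, 6010.2 for the myelin gene Mbp and 2064 for the astrocyte gene Gfap. In such bulk RNA fewer cells of a type and less RNA per cell cannot be told apart. On the leading principal component, with 45% of the variance, 6 h array 1 and 1 h array 3 stood farthest from the rest. Their beta-actin controls gave log2 3'/5' signal ratios of 2.55 and 2.00, against 1.26 to 1.41 in control. This ratio is higher where RNA is degraded or copied short. The other 1 h arrays had 1.38 and 2.13, and the other 6 h arrays 1.90 and 1.02. The same ratio of the Gapdh controls was 0.46 on 6 h array 1 and 0.12 on 1 h array 3, against 0.02 to 0.24 in control. By Gapdh only 6 h array 1 lay above the control arrays.

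Values below are the deposited linear signals of each array, in the order of replicates 1, 2 and 3. Changes are differences of quantile-normalized log2(signal + 16), where 1 unit stands for a doubling, fitted by limma across all probe sets with Benjamini-Hochberg adjusted p-values. The added 16 makes changes of low signals look smaller than they are. Of the 15 AP-1 probe sets, 10 (from 7 genes) passed the filter, a mean of log2 5.21 or a signal of about 21.0, and were tested among 18625 probe sets. Under it were all probe sets of Fosl1 and Fosl2, and 1 each of Fos and Jund. Signals of different probe sets are not comparable in absolute terms, so each was compared only with itself.

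No AP-1 probe set passed an adjusted p of 0.05 in any of the 4 comparisons (each time against control, the later time against the earlier, and both times together against control). Among all tested probe sets this rule called 0.0322% at 1 h, 0.0268% at 6 h, 0% between the times and 0.0483% for either time. Maff had the smallest p of the 10 at 6 h, with ketone arrays above every control array, but its control mean (log2 4.90) lay under the filter's level, so its ketone arrays brought it into the test. Fosb and Mafk followed at 6 h, while Junb and the brighter Fos probe set differed by less than the spread between replicates.

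**Figure D1:**
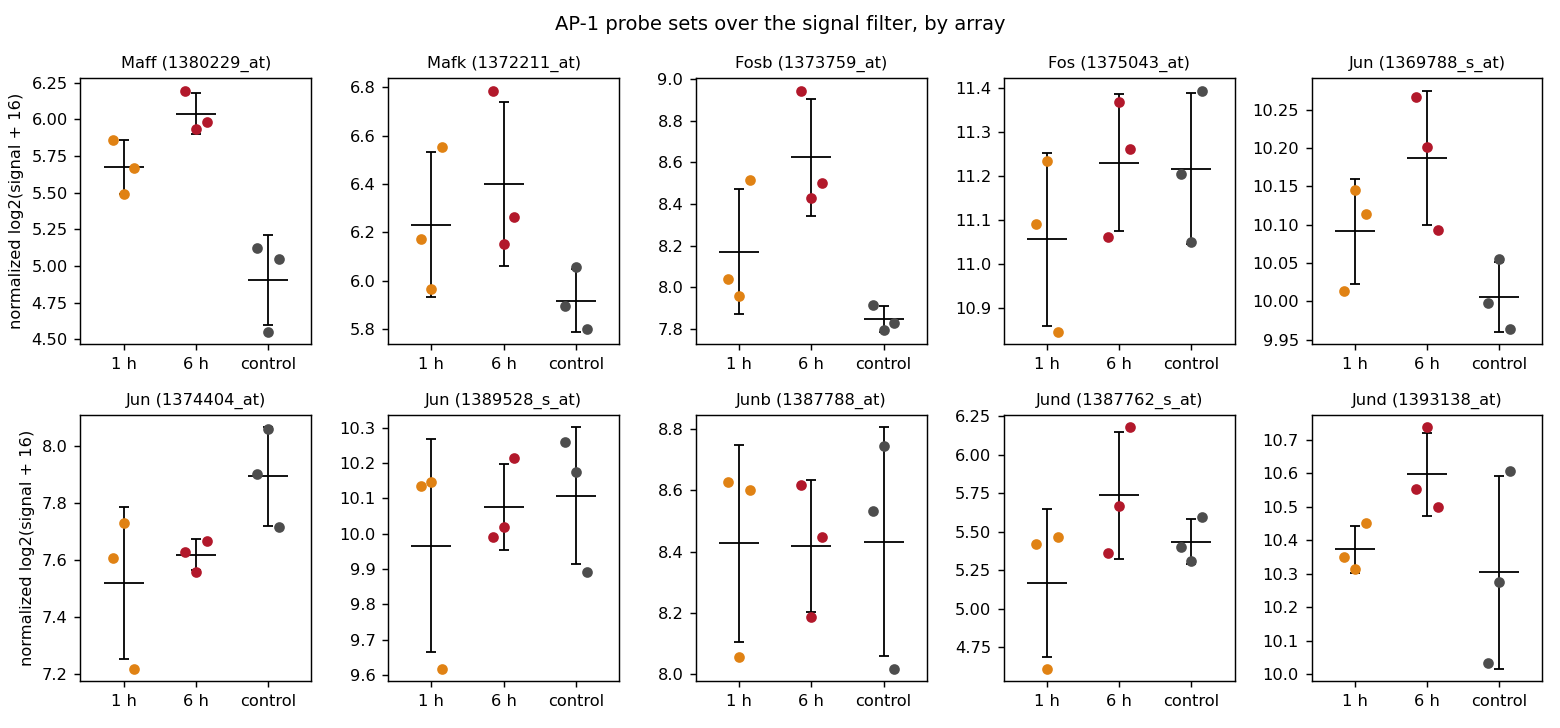
Normalized log2(signal + 16) of the 10 tested AP-1 probe sets, with a point per array, 1 h and 6 h of ketone bodies left of control, and bars for the mean ± SD (n = 3). Maff lies above all control arrays at both times and Fosb likewise, whereas Fos (1375043_at), Junb and both Jund probe sets overlap with control.

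Maff, a small Maf gene known to respond to stress and cytokine signals, had signals of 41.3, 27.5 and 33.1 at 1 h. At 6 h they were 52.7, 44.7 and 49.9, against 18.3, 8.32 and 18.3 in control. All 6 ketone arrays lay above all 3 controls, and all 6 h arrays above all 1 h arrays. The mean log2 level was 5.67 ± 0.18 at 1 h, 6.04 ± 0.14 at 6 h and 4.90 ± 0.31 in control (SD, n = 3 arrays each).

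The Maff (1380229_at) change was 0.77 ± 0.18 at 1 h (SE, 95% confidence interval 0.36 to 1.18, adjusted p = 0.299) and 1.13 ± 0.18 at 6 h (0.73 to 1.54, adjusted p = 0.141). For either time it was 0.95 ± 0.16 (0.60 to 1.30, adjusted p = 0.0996). The 6 h against 1 h difference was 0.36 ± 0.18 (-0.04 to 0.77, adjusted p = 0.996). Among 18625 probe sets Maff ranked 100 by p at 1 h, 12 at 6 h and 23 for either time. At so low a control level the size depends on the added constant. With a constant of 1 the changes were 1.32 at 1 h and 1.82 at 6 h, and with 64 they were 0.34 and 0.54. The ratio of mean deposited signals was 2.27 at 1 h and 3.27 at 6 h over control.

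With 1 probe set per gene (10707 tested) the adjusted p was 0.0495 at 6 h and 0.04 for either time. Array weights gave 0.94 for either time (adjusted p = 0.0403). Both fits keep the filter, which Maff passed only through its ketone arrays, so these p-values give no independent support. Over all alternatives the adjusted p ran from 0.0495 to 0.564 at 6 h and from 0.04 to 0.467 for either time. With the beta-actin 3'/5' ratio as a covariate the Maff change was 0.75 at 1 h and 1.12 at 6 h. Without the 2 arrays that stood apart it was 0.78 and 1.06.

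Marker signals of the cell types were summed, and those of 2 other types lay above control at 1 h. The summed signal of the 3 endothelial markers on the array (Cldn5, Flt1 and Pecam1) ran from 533 to 609 at 1 h and 547 to 633 at 6 h, against 481 to 530 in control. There was no overlap, at 1 h by a narrow margin. Of all tested single probe sets 21.3% did not overlap at 1 h and 9.2% at 6 h. Most of this sum was Cldn5, with a median signal of 472 beside 53.9 for Flt1 and 22.7 for Pecam1. The summed signal of the 6 microglial markers, the dimmest of which (Itgam) had a median of 22.5, ran from 1055 to 1143 at 1 h and 979.5 to 1056 at 6 h, against 869 to 1020 in control, with overlap at 6 h only. The microglial median was 1114 at 1 h and 1030 at 6 h, whereas Maff was higher at 6 h than at 1 h. The neuronal sum ran from 15691 to 16667 at 1 h and 15769 to 16288 at 6 h, against 16184 to 17184 in control, with overlap at both times. Astrocyte and oligodendrocyte sums also overlapped with control at both times. The part of these cell types in the Maff result was not tested.

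**Figure D2:**
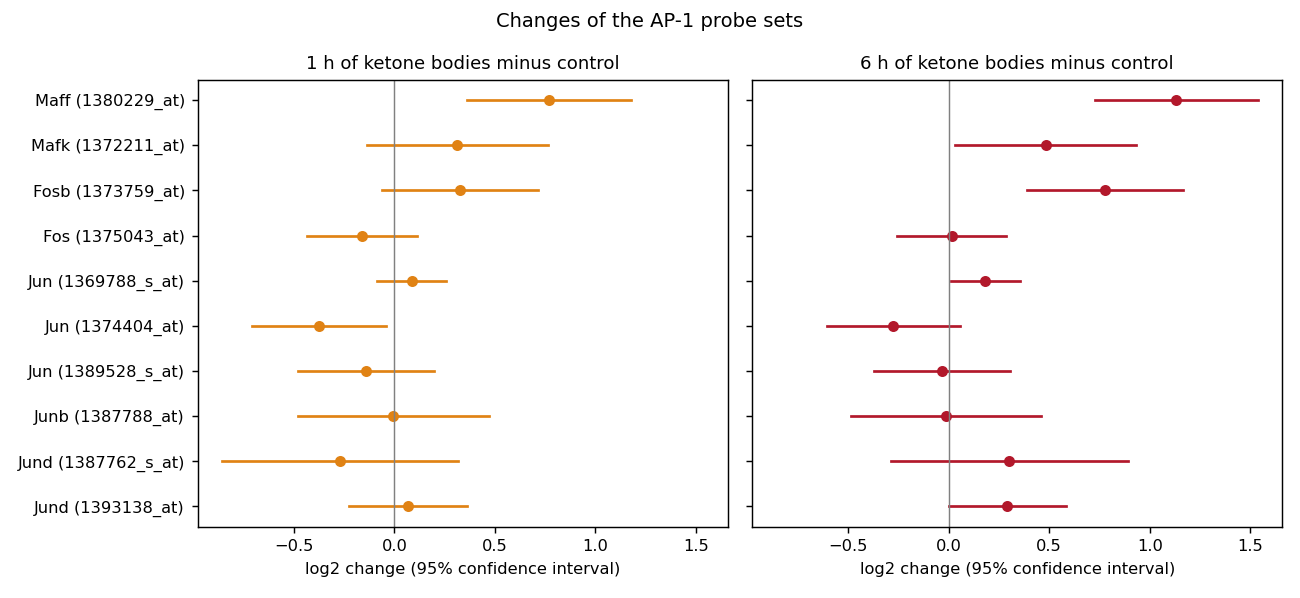
Log2 change of each tested AP-1 probe set at 1 h (left) and 6 h (right) of ketone bodies minus control, with 95% confidence intervals from limma. The Maff interval lies above 0 at both times, those of Mafk, Fosb and Jun (1369788_s_at) at 6 h, and that of Jun (1374404_at) below 0 at 1 h; no probe set passed after adjustment.

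Mafk is the other small Maf gene among the members. Its signals were 55.4, 44.3 and 74.1 at 1 h, and 90.3, 54.6 and 64.3 at 6 h, against 44.4, 53.6 and 43.4 in control. The 6 h arrays lay above the controls by a narrow margin, and the 1 h arrays overlapped with them. Its change (1372211_at) was 0.31 ± 0.20 at 1 h (SE, interval -0.14 to 0.76, adjusted p = 0.555) and 0.48 ± 0.20 at 6 h (0.03 to 0.93, adjusted p = 0.987). The highest values came from 1 h array 3 and 6 h array 1, the arrays that stood apart. Without 1 h array 3 the 1 h change was 0.15, and without 6 h array 1 the 6 h change was 0.29. With the 3'/5' ratio as a covariate Mafk had 0.20 at 1 h and 0.37 at 6 h.

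Fosb, whose stable short form builds up in neurons under repeated activity, had signals of 245, 232 and 347 at 1 h and 486, 325 and 344 at 6 h, against 228, 209 and 213 in control. All ketone arrays lay above all controls, at 1 h by a narrow margin, and the 6 h and 1 h arrays overlapped. The mean log2 level was 8.17 ± 0.30 at 1 h, 8.62 ± 0.28 at 6 h and 7.85 ± 0.06 in control (SD, n = 3 each).

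The Fosb (1373759_at) change was 0.33 ± 0.17 at 1 h (SE, interval -0.06 to 0.71, adjusted p = 0.492) and 0.78 ± 0.17 at 6 h (0.39 to 1.17, adjusted p = 0.43). The direct 6 h against 1 h difference was 0.45 ± 0.17 (0.07 to 0.84, unadjusted p = 0.0262, adjusted p = 0.996). The 6 h value was 0.61 without the arrays that stood apart and 0.66 with the 3'/5' ratio as a covariate. The 1 h value was 0.15 without 1 h array 3 and 0.20 with the covariate. No alternative brought Fosb under an adjusted p of 0.05, with a range of 0.196 to 1 at 6 h.

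**Figure D3:**
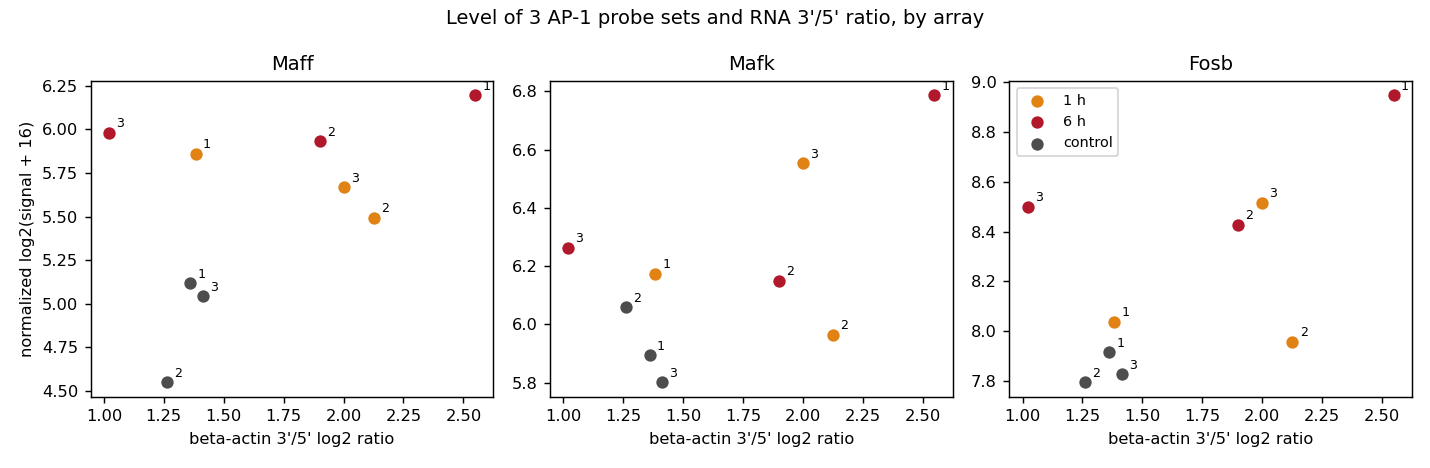
Normalized log2(signal + 16) of Maff, Mafk and Fosb on each array (numbered by replicate, coloured by group) against the log2 3'/5' ratio of the beta-actin controls. Maff, Mafk and Fosb are each above all controls (ratios 1.26 to 1.41) on 6 h array 3, at a ratio of 1.02. Each is highest on 6 h array 1, which has the highest ratio of 2.55.

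Fos was measured by a bright and a dim probe set. The bright one (1375043_at) had signals of 2238, 2481 and 1884 at 1 h and 2112, 2747 and 2339 at 6 h, against 2255, 2016 and 2552 in control. The groups overlapped throughout. Its change was -0.16 ± 0.12 at 1 h (SE, interval -0.43 to 0.11, adjusted p = 0.607), with 0.05 after centring on array medians, so its sign depended on the scaling. At 6 h it was 0.01 ± 0.12 (-0.26 to 0.29, adjusted p = 0.994). Centred on array medians the 6 h value was 0.15.

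The dim Fos probe set (1371283_at) had signals of 10.2, 5.42 and 18.0 at 1 h and 0.769, 6.82 and 1.97 at 6 h, against 3.00, 3.07 and 2.09 in control. All 1 h arrays lay above all controls, but all 9 values lay under the filter's level of 21.0. In a fit without the filter its change was 0.54 ± 0.17 at 1 h (SE, interval 0.17 to 0.91, unadjusted p = 0.00829, adjusted p = 0.413) and 0.02 ± 0.17 at 6 h (-0.35 to 0.39, adjusted p = 0.998). At signals this low these values are a description and give no direction for Fos.

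Fosl1 and Fosl2 encode the Fos-related antigens, which lack the strong activation domain of Fos. Fosl1 (1368489_at) had signals of 9.40, 11.9 and 13.6 at 1 h and 13.6, 11.4 and 21.4 at 6 h, against 8.12, 6.79 and 12.3 in control. Its groups overlapped, and without the filter the 6 h change was 0.35 ± 0.16 (SE, interval 0.01 to 0.70, adjusted p = 0.994). The Fosl2 probe sets ran in opposite senses at 6 h. The 6 h change was 0.38 ± 0.28 for 1383860_at, with signals from 3.00 to 29.4 over all arrays, and -0.21 ± 0.19 for 1387530_a_at, with 9.83 to 26.9. All Fosl2 groups overlapped after normalization, and both intervals included 0. In deposited signal the 6 h arrays of 1383860_at lay above its 1 h arrays.

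**Figure D4:**
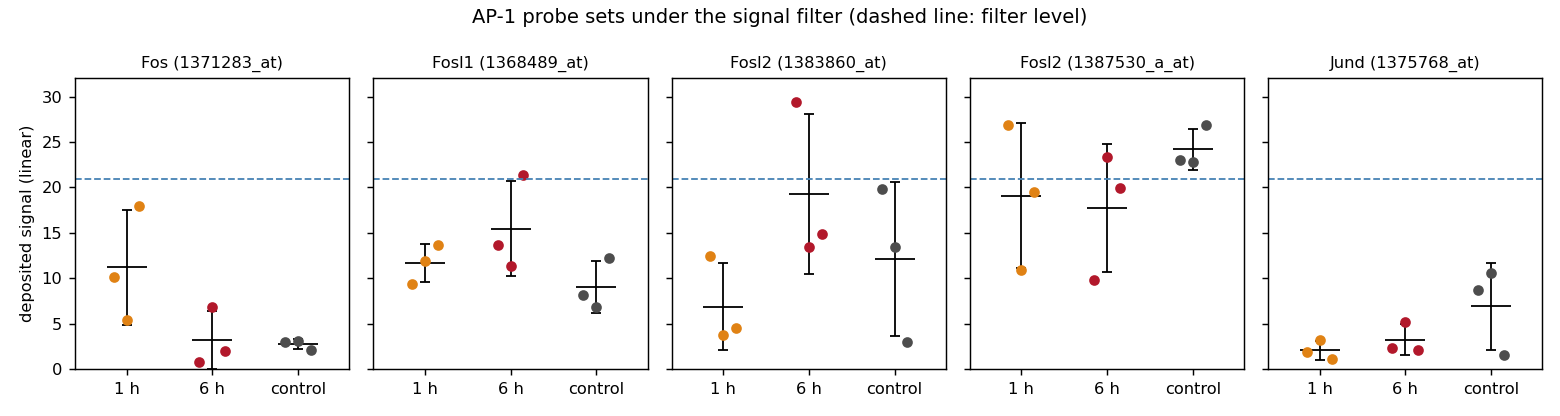
Deposited linear signal of the 5 AP-1 probe sets under the filter, with a point per array, 1 h and 6 h of ketone bodies left of control, bars for the mean ± SD (n = 3) and a dashed line at the filter's level of 21.0. The dim Fos probe set reaches 18.0 at 1 h and at most 3.07 in control, and the others overlap with control at both times.

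Jun, the partner that AP-1 dimers most often contain, was measured by 3 probe sets that did not move together. The first (1369788_s_at) had signals of 1028, 1140.2 and 1106 at 1 h and 1245, 1181 and 1059 at 6 h, against 1001, 1016 and 962 in control. Its 6 h arrays lay above all controls and its 1 h arrays overlapped after normalization. The changes were 0.09 ± 0.08 at 1 h (SE, adjusted p = 0.664) and 0.18 ± 0.08 at 6 h (interval 0.01 to 0.35, adjusted p = 0.987).

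The second Jun probe set (1374404_at) went the other way. It had signals of 177, 194 and 129 at 1 h and 182, 170.3 and 189 at 6 h, against 225, 252 and 196 in control. All 6 ketone arrays were below the controls in deposited signal, but after normalization 1 h array 2 overlapped with the lowest control. Its change was -0.37 ± 0.15 at 1 h (SE, interval -0.71 to -0.04, adjusted p = 0.403) and -0.27 ± 0.15 at 6 h (-0.61 to 0.06, adjusted p = 0.987). Without 1 h array 3 the 1 h value was -0.22. The last Jun probe set (1389528_s_at), which the annotation derives from the same expressed sequence as the second, had -0.14 ± 0.15 at 1 h and -0.03 ± 0.15 at 6 h. Its signals ran from 788 to 1197 with all groups overlapping, and its sign turned at both times after centring on array medians (0.01 and 0.08). The data thus gave no single direction for Jun.

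Junb, which often restrains Jun, had signals of 378, 250.1 and 369.9 at 1 h and 383, 273 and 332 at 6 h, against 357, 410.3 and 245 in control. Every group spanned nearly the same range. Its change (1387788_at) was -0.0043 ± 0.21 at 1 h (SE, interval -0.48 to 0.47, adjusted p = 0.995) and -0.01 ± 0.21 at 6 h (-0.49 to 0.46, adjusted p = 0.997). The intervals therefore did not exclude changes of up to nearly 0.5 on the log2 scale in either direction. After centring on array medians both values were positive (0.09 and 0.06).

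Jund is the Jun gene that most cells express steadily. Its brightest probe set (1393138_at) had signals of 1303, 1277 and 1419.9 at 1 h and 1504.5, 1729.85 and 1405 at 6 h, against 1020.1, 1187 and 1497 in control. The wide control range overlapped with both ketone groups, and after normalization the 6 h arrays lay above the 1 h arrays. The change was 0.07 ± 0.13 at 1 h (SE, adjusted p = 0.852), 0.29 ± 0.13 at 6 h (interval -0.00049 to 0.59, adjusted p = 0.987) and 0.22 ± 0.13 for 6 h against 1 h (adjusted p = 0.996).

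The Jund probe set just over the filter (1387762_s_at) had signals of 25.9, 7.84 and 27.3 at 1 h and 21.5, 35.2 and 60.1 at 6 h, against 26.3, 25.9 and 35.2 in control. It overlapped between all groups, with changes of -0.27 ± 0.26 at 1 h and 0.30 ± 0.26 at 6 h (SE, adjusted p = 0.688 and 0.987). The third (1375768_at) lay under the filter at 1.13 to 10.6 on all arrays, with -0.30 ± 0.15 at 1 h and -0.23 ± 0.15 at 6 h. Fosl2 (1387530_a_at), at a mean of log2 5.16, was the AP-1 probe set nearest under the filter, and Jund (1387762_s_at), at 5.45, the nearest over it.

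Counted over the 10 tested probe sets, 2 had an unadjusted p under 0.05 at 1 h (Maff higher, Jun 1374404_at lower), beside 11.4% of all tested probe sets (6.68% higher and 4.67% lower). The 1 h count was 1 without control array 1, control array 2 or 1 h array 3. At 6 h there were 4, all higher (Maff, Fosb, Mafk and Jun 1369788_s_at), beside 4.25% in either direction, 2.79% higher and 1.47% lower. This 6 h count was 2 without control array 1 or without 6 h array 1. For 6 h against 1 h there was 1, Fosb higher, beside 2.72% (1.31% higher and 1.41% lower). It was 0 without 1 h array 2, and 2 without control array 2, control array 3 or 1 h array 3. For either time there were 4 (Maff, Fosb and Mafk higher, Jun 1374404_at lower), beside 9.39% (5.58% higher and 3.81% lower), and 2 without control array 1 or control array 2. The comparisons with control share the same 3 control arrays. Without Maff, the only one of the 10 with a control mean under the filter's level, the counts over 9 were 1 at 1 h (lower), 3 at 6 h (higher), 1 for 6 h against 1 h and 3 for either time.

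Groups did not overlap for 2 of the 10 at 1 h, Maff and Fosb, both higher. That was beside 21.3% of all tested (13% higher and 8.26% lower), so the 1 h count was near the background. With deposited values the 1 h count was 4, beside 21.8%, and the count for either time 4, beside 4.81%. At 6 h there were 5, beside 9.2%: 4 higher (Maff, Fosb, Mafk and Jun 1369788_s_at), beside 6.05%, and 1 lower (Jun 1374404_at), beside 3.15%. For 6 h against 1 h there were 2, both higher (Maff and Jund 1393138_at), beside 7.59% (3.55% higher and 4.04% lower). For either time there were 2, both higher (Maff and Fosb), beside 4.7% (3.24% higher and 1.47% lower). Without Maff the counts over 9 were 1 at 1 h, 4 at 6 h, 1 for 6 h against 1 h and 1 for either time.

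The log2 change was above 0 for 5 of the 10 at 1 h, beside 55.3% of all tested, and for 7 at 6 h, beside 53.8%. It was above 0 for 9 between 6 h and 1 h, beside 47%, and for 6 for either time, beside 55.3%. The median change of the 10 was 0.03 at 1 h, 0.24 at 6 h and 0.17 for 6 h against 1 h, and over all 18625 it was 0.03, 0.01 and -0.01. Without Maff the medians over 9 were -0.0043, 0.18 and 0.17. No test of the set as a whole was made.

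Other genes of the pathway came from 4 lists. Of 22 related bZIP genes outside the 9, not all of them known dimer partners of AP-1 proteins, 12 were tested in 20 probe sets and 0 passed in any comparison. At 1 h 4 of the 20 had an unadjusted p under 0.05 with a higher level and 3 with a lower level, beside 6.68% and 4.67% of all tested probe sets. At 6 h there were 3 and 1, beside 2.79% and 1.47%. Atf3, a stress-induced partner of Jun, had signals of 203, 188 and 186 at 1 h and 247, 198 and 202 at 6 h, against 158, 135 and 120.3 in control. No Atf3 group overlapped with control, with changes of 0.50 ± 0.13 at 1 h (SE, adjusted p = 0.317) and 0.63 ± 0.13 at 6 h (adjusted p = 0.338). Atf4, which drives the amino acid stress response and can pair with Fos and Jun, had 0.39 ± 0.08 at 1 h (adjusted p = 0.256) and 0.34 ± 0.08 at 6 h (adjusted p = 0.534), again with no overlap. Mafg, the third small Maf gene, gave 0.39 ± 0.12 at 1 h and 0.33 ± 0.12 at 6 h in 1 probe set (adjusted p = 0.343 and 0.987) and -0.07 ± 0.22 and -0.10 ± 0.22 in the other. Among those lower, Creb1, which binds the CRE, had -0.60 ± 0.18 at 1 h and -0.36 ± 0.18 at 6 h (adjusted p = 0.335 and 0.987), below all controls at both times. Maf, a large Maf gene, had -0.40 ± 0.10 and -0.16 ± 0.10 (adjusted p = 0.299 and 0.987), also below all controls, and -0.08 ± 0.18 and -0.24 ± 0.18 with overlap in its other probe set. Mafg, Creb1 and Maf were chosen after their values were seen.

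Of 22 symbols of upstream kinases and SRF-type factors, 13 were tested in 24 probe sets, and 0 passed. The 22 include old and new symbols of the same genes (Mkl1 and Mrtfa, Mkl2 and Mrtfb). At 1 h 1 of the 24 had an unadjusted p under 0.05, Srf, beside 11.4% of all tested, and at 6 h 0, beside 4.25%. Srf, which activates Fos through the serum response element, had 0.30 ± 0.11 at 1 h (SE, adjusted p = 0.393) and 0.22 ± 0.11 at 6 h (adjusted p = 0.987), and its other probe set 0.21 ± 0.17 and 0.24 ± 0.17. The Jun kinase gene Mapk9 had -0.56 ± 0.31 and -0.58 ± 0.31 (adjusted p = 0.5 and 0.987), with 0.00 ± 0.13 and 0.07 ± 0.13 in its other probe set.

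Of 18 genes known as AP-1 targets, 9 were tested in 14 probe sets. Ccl2, a chemokine gene with AP-1 and NF-kB elements in its control region, rose and was the only call: 1.34 ± 0.13 at 1 h (SE, adjusted p = 0.0155) and 1.77 ± 0.13 at 6 h (adjusted p = 0.00142). It was known to change here before the list was drawn up, so it gives no independent support. The 14 probe sets, Ccl2 included, did not share a direction. At 1 h 7 log2 changes were positive (median 0.01), beside 55.3% of all tested, and at 6 h 8 (median 0.05), beside 53.8%. Unadjusted p was under 0.05 at 1 h for 1 higher (Ccl2) and 2 lower (Dusp1 and Nts), beside 6.68% and 4.67%. At 6 h there were 1 and 1 (Ccl2 and Dusp1), beside 2.79% and 1.47%. Nts had -0.48 ± 0.11 at 1 h (SE, adjusted p = 0.278), below all controls, and -0.09 ± 0.11 at 6 h (adjusted p = 0.987). Dusp1, a phosphatase that switches off the kinases upstream of AP-1, had 1049, 1092 and 926 at 1 h and 923, 1008 and 925 at 6 h, against 1159, 1183 and 1220.1 in control. It was below all controls on all ketone arrays, with -0.27 ± 0.09 at 1 h (adjusted p = 0.355) and -0.36 ± 0.09 at 6 h (adjusted p = 0.491), and its other probe set overlapped with -0.20 ± 0.29 and -0.50 ± 0.29.

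Genes driven by NRF2 with a small Maf partner were tested for 7 of 8 (10 probe sets), and 0 passed at adjusted p or had an unadjusted p under 0.05, the last beside 11.4% of all tested at 1 h and 4.25% at 6 h. The median log2 change was 0.02 at 1 h and -0.01 at 6 h, beside the higher Maff signals. Gclm, a subunit of the enzyme for glutathione synthesis, had -0.27 ± 0.13 at 1 h and -0.21 ± 0.13 at 6 h (SE, adjusted p = 0.472 and 0.987). The thioredoxin reductase gene Txnrd1 had -0.36 ± 0.20 and -0.32 ± 0.20, and 0.22 ± 0.17 and 0.15 ± 0.17 in its other probe set.

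**Figure D5:**
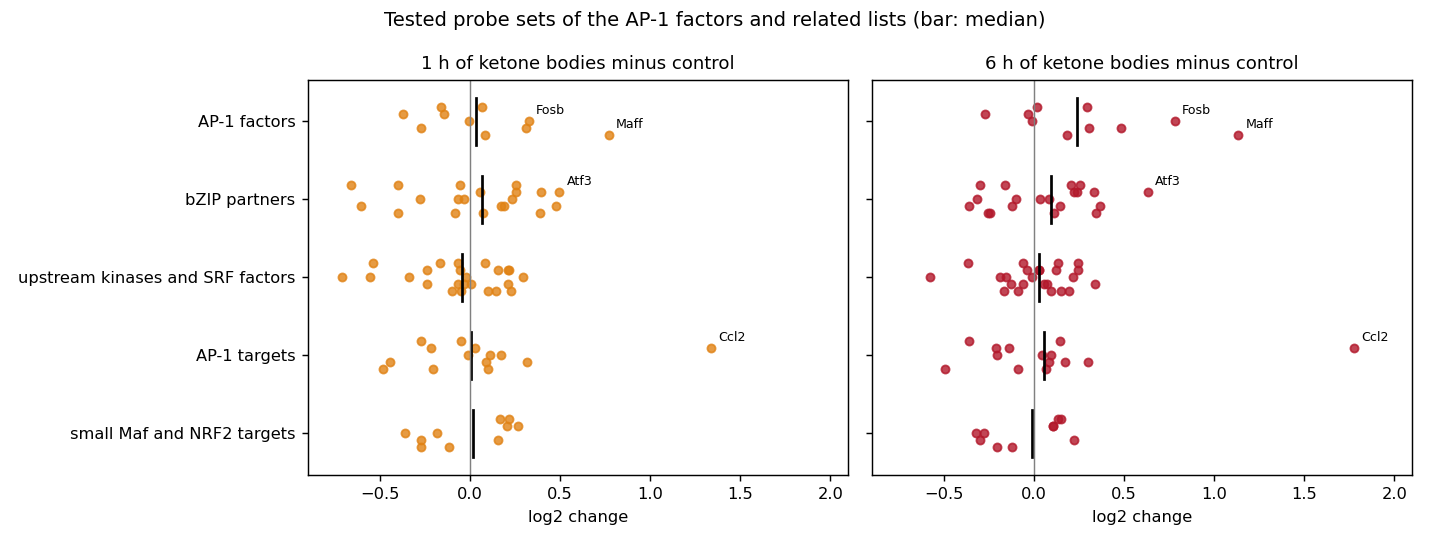
Log2 change of every tested probe set of the AP-1 factors and of the 4 related lists at 1 h (left) and 6 h (right) of ketone bodies minus control, with a black bar at the median of each list. At 6 h the AP-1 median is 0.24 with Maff at 1.13 and Fosb at 0.78, and Ccl2 among the targets lies at 1.77.

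Likeness of pattern was measured by Pearson's r of normalized log2 values over the 9 arrays, against 14449 other tested probe sets with a single gene name. The highest for Maff were Dyrk3 (0.985), Hey2 (0.968), Angptl4 (0.960), Adamts1 (0.951) and Rsu1 (0.947). After subtraction of group means Dyrk3 kept 0.963, Angptl4 had 0.727 and Adamts1 0.546, so part of the likeness was the group difference that they share. The highest for the bright Fos probe set were Gria4 (0.967), Pnrc2 (0.961), Arid1b (0.961), Csgalnact1 (0.948) and Tafa1 (0.945). These values stayed between 0.934 and 0.986 after group means were subtracted, so they describe differences between arrays of the same group. All probe sets of an array share its scaling and RNA quality, and with so many probe sets compared high values arise readily.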

How the data were processed

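Total RNA was profiled on 9 arrays. The authors deposited 1 linear signal intensity per probe set and array; which software and filters made it is not stated in the labels. Linear scale was read from the values, and the trimmed mean is near 150.05 on every array, as global scaling gives. Array medians of log2(signal + 16) spanned 0.206, so values were quantile normalized. The 57 control probe sets and those under the 40th percentile of the mean were left out. Limma 3.58.1 in R 4.3.3 fitted 1 coefficient per group (6 residual degrees of freedom, intensity trend) with 4 contrasts. Probe sets under the filter were described from a fit without it. All 9 members matched RefSeq by Entrez number.

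The members, lists and tests were chosen with earlier results of these data known. The named genes were every member, the 2 probe sets per list with the smallest p for either time, any that passed, and the 5 most like Fos and Maff. Outside this rule Mafg, Creb1, Maf and Nts were named after their values were seen. Groups and replicate numbers came from the labels. The steps were tested on simulated data. Same-numbered arrays deviated together in only some pairs (r from -0.36 to 0.54), so the numbers were not taken as pairs. Alternatives were 2 other scalings, 2 other pseudocounts, 2 other filters, no trend, array weights, a replicate block, fewer groups, 1 probe set per gene and 9 fits without 1 array. A 3'/5' covariate, leaving out 2 arrays and counts without Maff were added after seeing the data. Figures used matplotlib 3.10.9.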

Additional observations from a re-analysis of the deposited data

How the results depend on the processing

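The count of AP-1 probe sets passing an adjusted p of 0.05 was 0 in each comparison by the reported fit, and stayed 0 in every alternative run except 3. With 1 probe set per gene it was 1 at 6 h and 1 for either time, and with array weights it was 1 for either time. Each was Maff, which passed the filter only through its ketone arrays. Leaving out any 1 array gave 0 throughout. With a replicate block the count was 0 in each comparison, and the unadjusted count was 2 at 1 h (beside 11.6% of all tested), 3 at 6 h (4.4%), 3 for 6 h against 1 h (2.89%) and 3 for either time (9.69%). The unadjusted counts of 2, 4, 1 and 4 ran from 1 to 3 at 1 h, 2 to 5 at 6 h, 0 to 3 for 6 h against 1 h and 2 to 5 for either time. The 6 h against 1 h count was 0 without 1 h array 2. Counts of groups without overlap used normalized values; with deposited values they were 4 at 1 h (beside 21.8%), 5 at 6 h (9.18%), 1 for 6 h against 1 h (7.83%) and 4 for either time (4.81%). Of 860 recomputed log2 changes of single probe sets, 846 moved by less than the replicate SD, 11 moved by more and 3 newly passed. Those that moved by more were Maff with either pseudocount, and Fos (1375043_at) and Jun (1369788_s_at) with arrays centred on their medians, which also moved the median of all tested probe sets at 1 h from 0.03 to 0.10. Over all tested probe sets the calls of 6, 5, 0 and 9 ran from 0 to 25 at 1 h, 1 to 11 at 6 h, 0 to 0 for 6 h against 1 h and 1 to 33 for either time, the highest with array weights (1 probe set per gene at 6 h). The filter at the 60th percentile left Maff, Mafk and Jund (1387762_s_at) untested. Low signals limit Fosl1, Fosl2 and the control level of Maff.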
